A study of Mus musculus with 36 samples.

Results

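The 10 genes described here are used as markers of macrophages in the embryonic mouse gut: Lyz2, C1qa, C1qb, C1qc, Csf1r, Cx3cr1, Mrc1, Aif1, Cd68 and Ptprc. They were taken by gene name from the gene-level expression tables, which held 23847 entries with 23361 distinct names, and each name matched 1 entry. Expression was measured by poly(A) RNA sequencing of whole dissected gut from C57BL/6J embryos taken at E10.5, at E12.5 or at E14.5. The labels give a genotype, wild type or Ret null, and a sex, with 3 libraries in each of 12 groups and 36 in all. Neither the allele behind the null label nor the number of embryos in a library is stated in the labels, so a p-value here reflects only how far these libraries scatter, which may be technical. All values are FPKM (fragments per kilobase, scaled to depth), a scale per length that allows levels to be compared between genes of different length.

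Ret, a receptor of GDNF, is needed by the precursors of enteric neurons. Its RNA checks the labels. All 18 wild-type libraries held 2.11 to 13.3 FPKM of Ret, and 11 of the 18 libraries labelled Ret null held 0.0111 to 0.0587 FPKM. The other 7 held 4.74 to 6.49 FPKM, namely E10.5 females 1, 2 and 3, E12.5 male 2, E14.5 females 1 and 3 and E14.5 male 1, so the wording "labelled Ret null" is kept throughout. In 4 libraries sex-linked RNA, Xist of females and Ddx3y of the Y chromosome, went against the labelled sex. Labelled Ret null at E10.5, female 3 held Xist at 0.911 and Ddx3y at 13.5 FPKM, and male 1 held 66.05 and 0 FPKM. Females 1 and 2 of E12.5 wild type held both, with Xist at 49.1 and 52.2 FPKM and Ddx3y at 4.91 and 4.98 FPKM. These 4 are the libraries of contradicted sex below, although Xist in these E12.5 females goes with the label. For 4 pairs of libraries the replicates scattered by 0.914 to 1.08 times their estimated counting noise, with 0.269% to 0.712% of genes beyond 3 SD (females 1 and 2 and males 3 and 4 of E10.5 wild type, females 1 and 2 of the E10.5 group labelled Ret null, and females 1 and 2 of E12.5 wild type). Such pairs entered as their mean, as a single sample each, leaving 32 samples. In the other 32 pairs these values were 1.05 to 3.76 times and 1.59% to 38.7%. Depth implied by the authors' intervals was about 8.70 to 21.9 M fragments at E10.5, 22.0 to 49.8 M at E12.5 and 6.32 to 9.96 M at E14.5, so depth went with stage. Alb, the liver's albumin, stood at 274 and 267 FPKM in E12.5 females 2 and 3 labelled Ret null and at 1010 FPKM in E14.5 wild-type female 1, against at most 123 FPKM in the other 33 libraries.

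Tissue macrophages of the fetus come largely from precursors of the yolk sac and the fetal liver, which seed organs through the blood before birth. Their survival depends on Csf1r, the receptor for the cytokines Csf1 and Il34, and the transcription factor PU.1 drives Csf1r and many other genes of the lineage. In the gut wall macrophages take up dying cells, release the complement component C1q and lie close to enteric neurons, which in postnatal gut are known as a source of Csf1. Among the 10 genes, Csf1r, Cx3cr1 (receptor for the chemokine Cx3cl1), Mrc1 (the mannose receptor CD206) and Ptprc (the phosphatase CD45 of white blood cells) encode surface proteins. C1qa, C1qb and C1qc encode the chains of C1q, and Lyz2 encodes the secreted lysozyme of macrophages and granulocytes. Cd68 is a lysosomal membrane protein and Aif1 (Iba1) a cytosolic protein that binds actin. Mrc1 is also made by sinusoidal and lymphatic endothelium. In whole gut, fewer macrophages and less of an RNA per macrophage cannot be told apart.

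The genes of the C1q chains lie side by side on the minus strand of chromosome 4 (GRCm38, the mm10 build), with C1qb at 136880145 to 136886177, C1qc at 136889802 to 136892914 and C1qa at 136895916 to 136898844. The RefSeq promoter table (GRCm38.p6) matched 8 of the 10 genes; C1qa and Csf1r had no entry. The 250 bases before the start of 4 genes are printed because these genes bear the contrast in the values: C1qb and C1qc moved together with stage and labelled genotype, Lyz2 moved most, and Cx3cr1 was called in no comparison with all samples in. Lyz2 and Cx3cr1 were added to this set after their values were seen. All 4 lie on the minus strand and read 5′ to 3′ toward the gene, and capitals mark matches to the core of PU.1 sites (GAGGAA), the half-site of Maf factors (TGCTGA) or TATAAA, searched on both strands.
C1qb, chr4:136886201-136886450: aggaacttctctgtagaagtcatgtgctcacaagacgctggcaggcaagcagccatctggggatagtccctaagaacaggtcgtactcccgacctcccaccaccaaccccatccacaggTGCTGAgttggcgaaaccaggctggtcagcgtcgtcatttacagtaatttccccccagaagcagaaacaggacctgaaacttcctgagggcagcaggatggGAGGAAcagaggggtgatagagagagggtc
C1qc, chr4:136892915-136893164: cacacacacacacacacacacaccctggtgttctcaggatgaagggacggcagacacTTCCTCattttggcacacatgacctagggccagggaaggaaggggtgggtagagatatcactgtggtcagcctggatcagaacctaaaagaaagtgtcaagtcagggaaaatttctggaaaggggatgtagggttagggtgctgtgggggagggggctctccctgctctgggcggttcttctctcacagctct
Lyz2, chr10:117282273-117282522: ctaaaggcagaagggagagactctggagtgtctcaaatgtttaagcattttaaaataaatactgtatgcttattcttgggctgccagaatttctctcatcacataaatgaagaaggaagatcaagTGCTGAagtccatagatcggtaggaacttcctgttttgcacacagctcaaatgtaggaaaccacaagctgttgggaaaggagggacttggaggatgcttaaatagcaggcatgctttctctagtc
Cx3cr1, chr9:120068297-120068546: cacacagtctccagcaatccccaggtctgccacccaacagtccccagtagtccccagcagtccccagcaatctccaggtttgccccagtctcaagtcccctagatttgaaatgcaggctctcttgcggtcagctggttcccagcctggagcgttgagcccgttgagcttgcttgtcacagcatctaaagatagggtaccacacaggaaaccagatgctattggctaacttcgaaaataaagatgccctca
The stretch before C1qb held GAGGAA with its first base at -30 and TGCTGA at -131, counted back from the start. That before C1qc held the PU.1 letters on the opposite strand at -193. Before Lyz2 only TGCTGA was found, at -125, and before Cx3cr1 none of the motifs was. GAGGAA occurred before 6 of the 8 matched genes (Aif1, C1qb, C1qc, Cd68, Mrc1 and Ptprc) and in 23.3% of all 32851 windows of this length. Ptprc had a second window, with no match, so by window it was 6 of 9. TGCTGA was found before 2 of 8 (C1qb and Lyz2) against 16.1% of all windows, and TATAAA before 1 of 8 (Ptprc) against 12.4%. No motif overlapped another in the 4 stretches shown. The letters are a description of these windows and say nothing of binding.

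All 10 genes were detected in every library. In wild type at E10.5 the order of the mean levels ran from C1qb (11.4 ± 2.02 FPKM, SD, n = 4) and C1qc (10.7 ± 2.91 FPKM) through Lyz2 (7.64 ± 1.65 FPKM), Csf1r (6.32 ± 1.40 FPKM), C1qa (6.25 ± 2.57 FPKM) and Cd68 (5.18 ± 1.28 FPKM) to Mrc1 (3.83 ± 0.623 FPKM) and Cx3cr1 (3.01 ± 0.682 FPKM). Aif1 (1.77 ± 0.451 FPKM) and Ptprc (0.836 ± 0.126 FPKM) came last. C1qb and C1qc differed by less than the larger of their SDs, and so did the neighbours from Lyz2 to Cd68. The steps from C1qc to Lyz2, from Cd68 to Mrc1 and on through Cx3cr1, Aif1 and Ptprc each exceeded it. By E14.5 Lyz2 led in wild type with 26.8 ± 5.47 FPKM (n = 6), ahead of C1qb (17.7 to 23.1 FPKM) and C1qc (19.8 ± 3.82 FPKM). The label of the set was checked against other macrophage genes. Emr1, the F4/80 antigen, stood at 2.14 ± 0.454 FPKM in E10.5 wild type, and Sfpi1, which encodes PU.1, at 2.59 ± 0.435 FPKM. No gene of the list of 25 other macrophage and microglia genes was under 0.1 FPKM in all samples of any group of stage and label. Of 14 genes of fetal resident macrophages, Cd163, Vsig4 and Cd209f stayed under that level in all E10.5 and E12.5 samples. Rag1, needed for the antigen receptors of T and B cells, was under 0.1 FPKM in all samples.

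**Figure D1:**
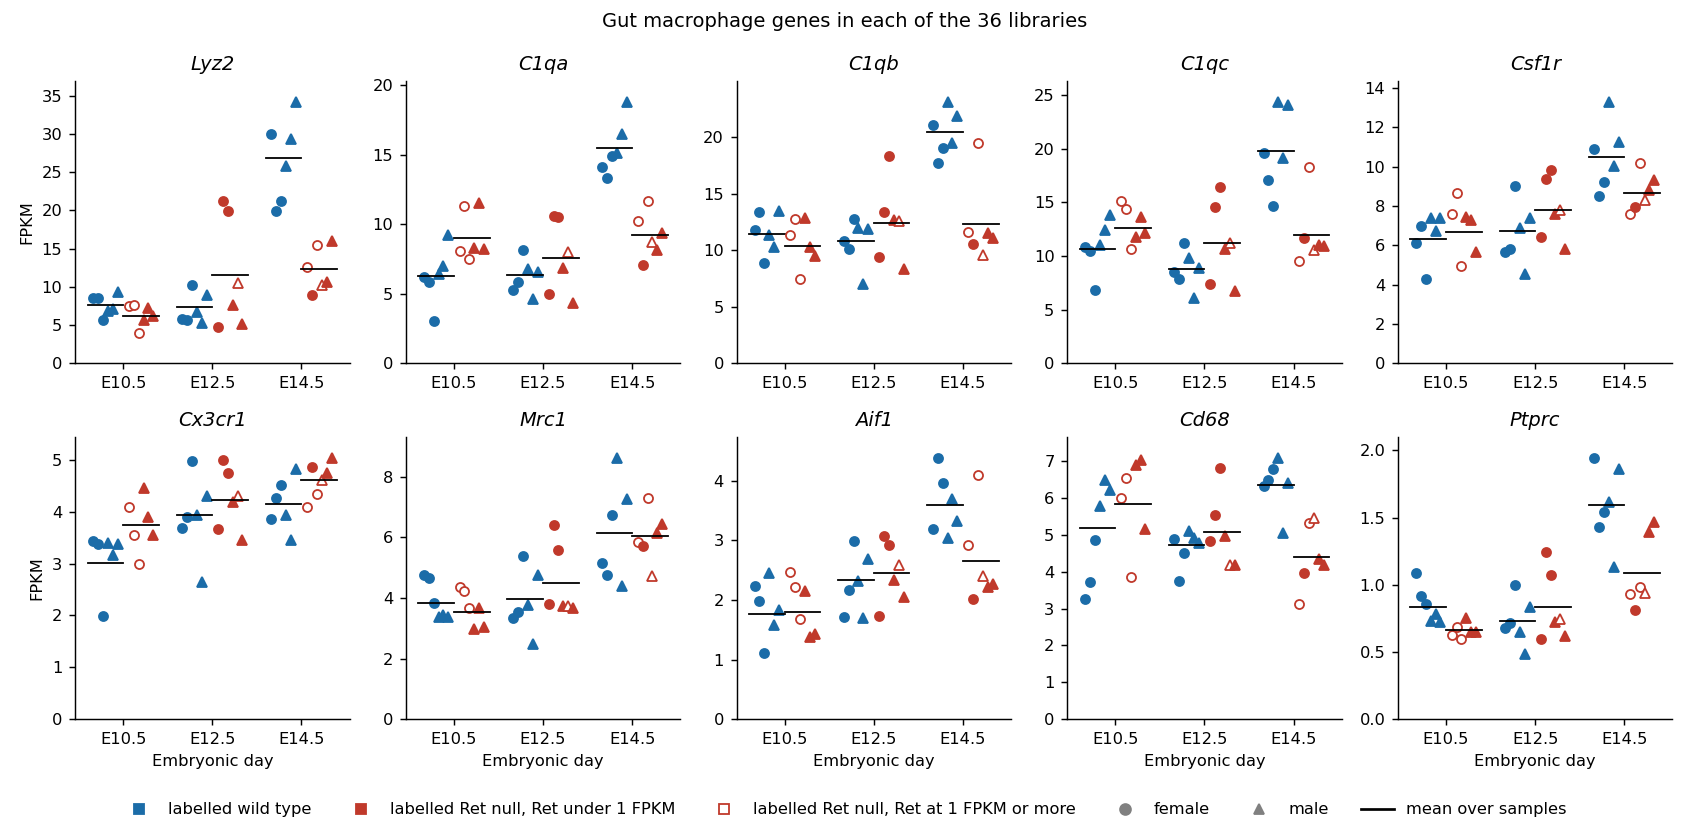
FPKM (y axes, from 0) of the 10 genes in each library by embryonic day, with circles for females, triangles for males, blue for wild type and red for libraries labelled Ret null; open red symbols hold Ret RNA at 1 FPKM or more, and bars are means over samples after averaging close pairs. Lyz2 and C1qa in the 6 E14.5 wild-type libraries lie above all 6 labelled Ret null, whereas Cx3cr1 overlaps at every stage.

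Between E10.5 and E12.5 no change of a macrophage gene passed the test in wild-type gut. By limma on log2(FPKM + 1), 0 of the 10 genes passed an adjusted p of 0.05, where 4.57% of all 14321 genes tested did, and 1 of the 10 had an unadjusted p under 0.05. That gene was Cx3cr1, whose libraries held 3.43 and 3.37 (averaged), 1.99, 3.39 and 3.16 (averaged) and 3.38 FPKM at E10.5. At E12.5 they held 3.68 and 3.90 (averaged), 4.97, 3.93, 2.65 and 4.31 FPKM, so the stages overlapped. Its difference was 0.32 on the log2 scale (SE 0.122, adjusted p = 0.147). Without E10.5 wild-type females 1 and 2 it was 0.46, with adjusted p = 0.0345. Lyz2 differed by -0.05 (SE 0.306) and Csf1r by 0.09 (SE 0.161). C1qc differed by -0.22 (SE 0.204) and Aif1 by 0.28 (SE 0.156), and the median over the 10 genes was -0.00 beside 0.01 over all genes.

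From E12.5 to E14.5 macrophage genes rose in wild-type gut, led on the log2(FPKM + 1) scale by lysozyme and the C1q chains. Of the 10 genes 9 rose and 0 fell, all but Cx3cr1. The transcriptome as a whole moved much between these stages, with 31.0% of all genes called higher, 27.9% called lower and 58.9% called in either direction. The median difference of the 10 genes was 0.57 beside 0.02 over all genes tested.

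Lyz2 held 5.74 and 5.70 FPKM in E12.5 wild-type females 1 and 2 (averaged), 10.2 FPKM in female 3, and 6.67, 5.33 and 8.96 FPKM in the males. At E14.5 the females held 30.0, 20.0 and 21.3 FPKM and the males 25.8, 29.3 and 34.2 FPKM. Every E14.5 library lay above every E12.5 library. The difference was 1.73 (SE 0.277, adjusted p = 1.39e-05). C1qa went from 5.25 and 5.87 (averaged), 8.14, 6.76, 4.64 and 6.55 FPKM to 14.1, 13.3, 14.9, 15.2, 16.5 and 18.8 FPKM, again with no overlap (1.16, SE 0.185, adjusted p = 1.23e-05). For C1qb the E12.5 libraries held 10.8 and 10.1 (averaged), 12.8, 11.98, 6.99 and 11.9 FPKM, and those of E14.5 ran from 17.7 through a median of 20.3 to 23.1 FPKM (0.86, SE 0.177, adjusted p = 0.000251). C1qc held 8.52 and 7.82 (averaged), 11.2, 9.84, 6.04 and 8.86 FPKM, then 14.7 to 24.4 FPKM with a median of 19.4 FPKM (1.07, SE 0.185, adjusted p = 3.60e-05). The chains of one protein complex thus rose together, C1qb the least of them, although the differences among the chains were not tested.

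Among the surface proteins, Ptprc rose from 0.734 ± 0.196 (n = 5) to 1.59 ± 0.295 FPKM (n = 6), a difference of 0.56 (SE 0.0977, adjusted p = 3.71e-05). At this low level the pseudocount of 1 understates the rise. Csf1r rose from 4.53 to 9.03 FPKM in the E12.5 libraries to 8.50 to 13.3 FPKM in those of E14.5 (0.58, SE 0.145, adjusted p = 0.00166), with E12.5 female 3 above the lowest E14.5 library. Mrc1 went from 3.96 ± 1.13 to 6.16 ± 1.66 FPKM (0.51, SE 0.149, adjusted p = 0.00567). Cx3cr1 was the exception, at 3.93 ± 0.850 and 4.14 ± 0.494 FPKM (0.05, SE 0.110, adjusted p = 0.709). Aif1 went from 2.33 ± 0.529 to 3.60 ± 0.515 FPKM (0.46, SE 0.141, adjusted p = 0.00709) and Cd68 from 4.73 ± 0.315 to 6.36 ± 0.701 FPKM (0.37, SE 0.119, adjusted p = 0.0100). In 6 of the 10 genes (Lyz2, the 3 C1q genes, Aif1 and Ptprc) the stages did not overlap, as in 20.0% of all genes tested. E12.5 wild-type females 1 and 2 hold both Xist and Ddx3y RNA. Leaving them out ended the limma calls of Mrc1 (0.37, adjusted p = 0.0643) and Aif1 (0.35, adjusted p = 0.0684) and left 7.

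Other genes of the lineage moved the same way in this comparison. Of 22 tested other macrophage and microglia genes 19 rose and 0 fell, with a median of 0.55. They included Irf8, a myeloid transcription factor (1.03), Itgam, the integrin CD11b (0.65), Tyrobp, an adaptor of activating receptors (0.90), and Fcgr3, an IgG receptor (0.81). Emr1 rose by 0.38 and Sfpi1 by 0.55. Of 10 tested genes of fetal resident macrophages 6 rose, among them Lyve1, a hyaluronan receptor also of lymphatic endothelium (1.93), Gas6, a bridging ligand for the uptake of dying cells (1.66), and Folr2 (0.69). All 15 lysosome genes rose (median 0.59). Of 12 complement genes 8 rose, including C1ra and C1s, the proteases that bind C1q (1.01 and 1.06).

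Genes of a list of ligands rose as well, in 4 of 4 tested. Csf1, a ligand of Csf1r, went from 4.56 ± 0.544 to 6.56 ± 1.34 FPKM (0.42). Cx3cl1, the ligand of Cx3cr1, went from 1.13 ± 0.173 to 3.22 ± 1.01 FPKM (0.95). Also on the list was the monocyte attractant Ccl2, which went from 0.618 ± 0.327 to 2.83 ± 1.22 FPKM (1.20). Tgfb1, on the list too, went from 4.78 ± 1.50 to 8.14 ± 1.34 FPKM (0.65). Il34, the other ligand of Csf1r, did not pass the filter on low values (0.129 ± 0.0491 and 0.559 ± 0.250 FPKM). Markers of other cell types moved with them: 4 of 4 tested genes of the monocyte list (Plac8, Lyz1, F13a1 and Ccr2), 4 of 4 mast cell genes, 5 of 8 endothelial genes and 7 of 7 gut epithelium genes rose. Reads of the member Lyz2 could be split onto Lyz1, its near-identical neighbour, so the rise of Lyz1 is not separate from that of Lyz2. Of 9 liver genes 3 rose (Apoa1, Apob and Ttr, 1.14 to 2.32), and of 7 mesenchyme genes 5 rose while Pdgfra (-1.33) and Foxf1 (-0.92) fell. Of 8 red cell genes the embryonic globins Hbb-y (-3.69), Hbb-bh1 (-4.60) and Hba-x (-3.51) fell and Alas2 (1.94) rose. The summed level of the 11 neutrophil genes was 3.43 to 26.4 FPKM in E12.5 and 12.9 to 102 FPKM in E14.5 wild-type samples, and 2 of 8 tested rose. The part of these other cells in the rise of Lyz2 and Ptprc was not tested, nor was that of depth, which was lowest at E14.5.

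**Figure D2:**
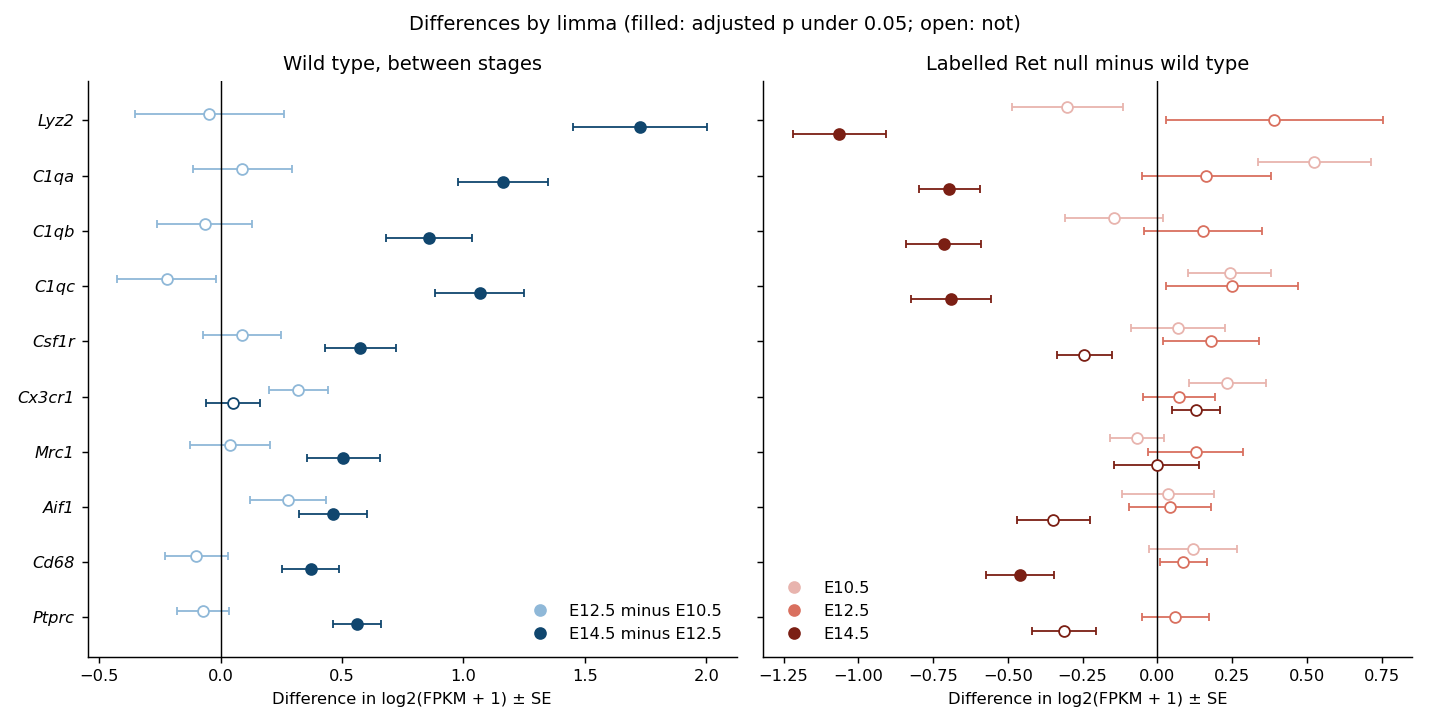
Differences in log2(FPKM + 1) with standard errors for the 10 genes, between stages in wild type (left) and between libraries labelled Ret null and wild type at each stage (right); filled points passed an adjusted p of 0.05 by limma. On the left 9 genes are filled for E14.5 minus E12.5 and none for E12.5 minus E10.5; on the right 5 are filled, all at E14.5 and all below 0.

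At E10.5 none of the marker genes tested passed between libraries labelled Ret null and wild type. Of 9 genes tested 0 were called by limma, where 8.29% of all genes were, and 1 had an unadjusted p under 0.05. This was C1qa, at 6.21 and 5.87 (averaged), 3.02, 6.41 and 6.97 (averaged) and 9.26 FPKM in wild type. The libraries labelled Ret null held 8.09 and 11.3 (averaged), 7.52, 8.28, 11.5 and 8.23 FPKM, and the groups overlapped only through wild-type male 5. The difference was 0.52 (SE 0.190, adjusted p = 0.120). It passed when every library was counted (0.51, adjusted p = 0.0362) and without wild-type females 1 and 2 (0.73, adjusted p = 0.0368). Without libraries that hold Ret it was 0.21 (adjusted p = 0.688 by limma). No female labelled Ret null was then left, so males were compared with males. The wild-type females, which include the lowest value (3.02 FPKM), thus left the contrast too. The other chains stood at -0.14 (C1qb, SE 0.164) and 0.24 (C1qc, SE 0.139). Lyz2 differed by -0.30 (SE 0.186) and Csf1r by 0.07 (SE 0.157). Ptprc was under the filter, with a mean of 0.836 ± 0.126 FPKM in wild type and 0.661 ± 0.0571 FPKM in samples labelled Ret null. Among the other macrophage lists, 0 of 16 macrophage and microglia genes and 1 of 10 fetal resident genes were called by limma. Pf4, a chemokine also of megakaryocytes, was lower (26.6 ± 12.7 to 9.95 ± 3.66 FPKM, -1.30, adjusted p = 0.0200). Other cells' markers moved too. Myh11 (2.58), Acta2 (1.50) and Foxf1 (1.05) of mesenchyme and Vil1, Cldn7, Epcam, Cdx2 and Cdh1 of epithelium (0.72 to 1.07) were higher. Hbb-bh1 (-2.58) and Hba-x (-1.36) of red cells and Mpo (-1.27) and Prtn3 (-0.63) of neutrophils were lower. No other tested gene of these lists was called. Myh11, Acta2, Foxf1, Epcam, Cldn7 and Cdh1 also rose in wild type from E10.5 to E12.5. The part of tissue makeup was not tested.

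At E12.5 all 10 genes had a higher mean in libraries labelled Ret null, and none passed the test (0 of 10, with 0 at an unadjusted p under 0.05 by limma; 0.00759% of all genes were called). Lyz2 shows the spread behind this. Females labelled Ret null held 4.69, 21.2 and 19.9 FPKM and males 7.63, 10.4 and 5.17 FPKM, against 5.33 to 10.2 FPKM in wild type (0.39, SE 0.364, adjusted p = 0.727). The 2 high libraries, females 2 and 3, are those with Alb at 274 and 267 FPKM. Without them the Lyz2 difference was -0.25, and the median over the 9 genes then tested was -0.07 in place of 0.14 over 10. The part of liver cells in their Lyz2 level was not tested. In these 2 libraries C1qa (10.57 and 10.53 FPKM), Csf1r (9.36 and 9.83 FPKM) and Ptprc (1.24 and 1.07 FPKM) were also the highest of the stage.

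At E14.5 the group labelled Ret null held less RNA of lysozyme, of the C1q chains and of Cd68 than wild type. Of the 10 genes 5 were called lower and 0 higher, where 4.84% of all genes were called lower, 10.9% higher and 15.7% in either direction. The median difference was -0.40 beside 0.04 over all genes. Library traits differed by label too. The share of gene entries with an FPKM outside the authors' interval was 2.73% to 3.85% in wild type. It was 4.69% to 5.88% in libraries labelled Ret null, with or without Ret RNA. Implied depth was 6.32 to 8.69 M and 7.79 to 9.96 M fragments. Summed over all gene entries, FPKM came to 448520 to 491230 in wild type. In libraries labelled Ret null the sum was 404020 to 421850, except in female 3 (497290). The part of such library differences in these calls was not tested. Lyz2 held 12.6, 8.94 and 15.5 FPKM in females labelled Ret null and 10.2, 10.7 and 16.0 FPKM in males. The highest of these lay under the lowest wild-type library (20.0 FPKM), and the difference was -1.06 (SE 0.155, adjusted p = 0.00795). Lyz1, a near-identical neighbour on which reads of Lyz2 could be split, was lower too (2.60 ± 0.802 to 0.765 ± 0.275 FPKM, -1.01, adjusted p = 0.00778), and the labels do not say how shared reads were counted.

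C1qa in libraries labelled Ret null held 10.3, 7.11 and 11.7 FPKM in females and 8.74, 8.16 and 9.36 FPKM in males, all under the wild-type range of 13.3 to 18.8 FPKM (-0.70, SE 0.102, adjusted p = 0.00819). C1qb held 11.6, 10.6, 19.4, 9.55, 11.5 and 11.1 FPKM against 17.7 to 23.1 FPKM (-0.71, SE 0.126, adjusted p = 0.0108), and only female 3 reached the wild-type range. C1qc repeated this, with 9.57, 11.7, 18.3, 10.55, 11.01 and 10.9 FPKM against 14.7 to 24.4 FPKM (-0.69, SE 0.133, adjusted p = 0.0133). Cd68 held 3.12, 3.96, 5.33, 5.46, 4.33 and 4.17 FPKM against 5.05 to 7.09 FPKM (-0.46, SE 0.114, adjusted p = 0.0261). Its call was lost, with adjusted p of 0.0536 to 0.0695, when any 1 of 5 libraries was left out (females 1 and 2 and males 2 and 3 labelled Ret null, wild-type male 3). Lyz2 and C1qa were the genes whose groups did not overlap, as in 1.50% of all genes for lower values.

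Csf1r, Mrc1 and Cx3cr1 stood closer together. Csf1r held 7.57, 7.95, 10.2, 8.28, 8.80 and 9.31 FPKM in libraries labelled Ret null and 8.50 to 13.3 FPKM in wild type (-0.24, SE 0.0922, adjusted p = 0.0872). Mrc1 was at 6.03 ± 0.844 and 6.16 ± 1.66 FPKM (-0.00, SE 0.144, adjusted p = 0.990). Cx3cr1 was at 4.61 ± 0.345 and 4.14 ± 0.494 FPKM, the one positive difference (0.13, SE 0.0796, adjusted p = 0.261). Ptprc, at 1.09 ± 0.271 and 1.59 ± 0.295 FPKM (-0.31, SE 0.107, adjusted p = 0.0666), and Aif1, at 2.65 ± 0.768 and 3.60 ± 0.515 FPKM (-0.35, SE 0.122, adjusted p = 0.0694), missed the threshold. The pseudocount of 1 understates the difference of Ptprc, which stood near 1 FPKM. With a pseudocount of 0.1 in its place neither gene was called. Ptprc passed it without wild-type male 2 (-0.37, adjusted p = 0.0427), and Csf1r (-0.30, adjusted p = 0.0282) and Aif1 (-0.44, adjusted p = 0.0134) did without female 3 labelled Ret null. Whether these genes differ from Lyz2 and C1q in their response was not tested.

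The E14.5 libraries labelled Ret null were split by Ret RNA. For Lyz2 and C1qa all of them lay under the wild-type range, so any split does too and adds no test. In the 3 E14.5 libraries labelled Ret null that hold Ret (5.76 to 6.49 FPKM) Lyz2 ran from 10.2 to 15.5 FPKM, and in the 3 without it (0.0111 to 0.0587 FPKM) from 8.94 to 16.0 FPKM. C1qa ran from 8.74 to 11.7 and from 7.11 to 9.36 FPKM. Aif1 was higher with Ret (2.41 to 4.09 FPKM) than without (2.01 to 2.26 FPKM), and Cx3cr1 was lower (4.1 to 4.6 against 4.74 to 5.04 FPKM). The ranges of the remaining genes overlapped by Ret level, and these differences were not tested. Tubb3, a tubulin of neurons, parted the same libraries, with 47.4, 56.7 and 56.8 FPKM where Ret was present and 4.54, 1.23 and 0.786 FPKM where it was not. The wild-type libraries held 20.1 to 59.1 FPKM of Tubb3. When libraries holding Ret were left out, 6 of the 10 genes were lower (Lyz2 -1.21, C1qa -0.88, C1qb -0.84, C1qc -0.74, Cd68 -0.52 and Aif1 -0.55) in that fit of 3 libraries against 6, where 4.65% of all genes were called lower (639, with 543 higher). Of 9 enteric neuron genes 0 were called with the libraries as labelled and 9 were lower without those that hold Ret. Ret is 1 of these 9, and its own call follows from how the libraries were chosen.

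**Figure D3:**
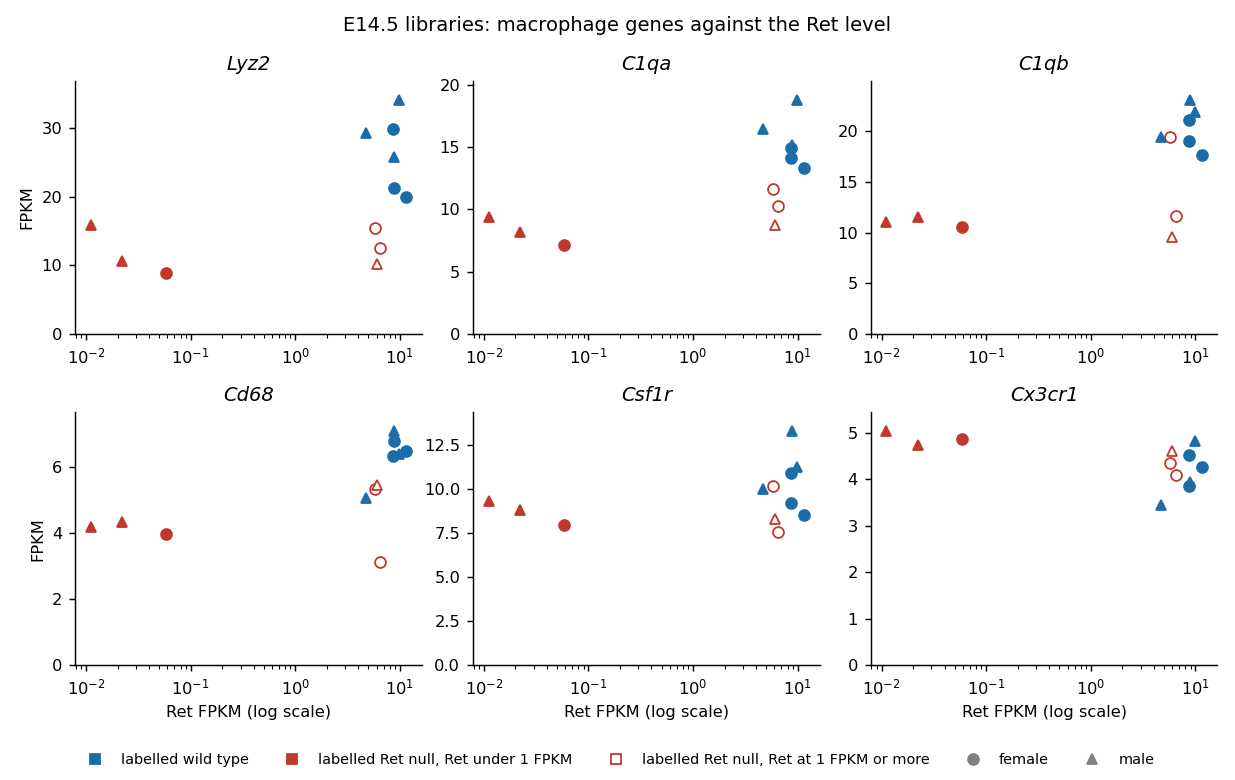
FPKM of 6 of the genes (y axes, from 0) against Ret FPKM (x axes, log scale) in the 12 E14.5 libraries; symbols mark sex, colours the label and open red symbols libraries labelled Ret null with Ret. The open red symbols lie at 5.76 to 6.49 FPKM of Ret and the filled ones at 0.0111 to 0.0587. For Lyz2 and C1qa, whose groups by label do not overlap, both sit under all blue ones.

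Of 22 other macrophage genes tested, 4 were lower and 0 higher (median -0.24): Ctss, a lysosomal protease of phagocytes (9.98 ± 1.20 to 6.28 ± 0.764 FPKM, -0.59, adjusted p = 0.00967), Tyrobp (17.2 ± 3.53 to 10.8 ± 3.05 FPKM, -0.64), Itgam (-0.38) and Fcgr3 (-0.46). Emr1 (-0.22, adjusted p = 0.114) and Sfpi1 (-0.24, adjusted p = 0.222) did not pass. Among 10 fetal resident macrophage genes Lyve1 (-0.73) and Gas6 (-0.37) were lower. Of 12 complement genes C1s was (-0.78), and of 15 lysosome genes Ctsb, Lamp1, Ctsd and Ctsz (-0.38 to -0.21). Of the 4 tested genes of the ligand list none was called by limma. Csf1 stood at 6.23 ± 0.421 against 6.56 ± 1.34 FPKM (-0.05, adjusted p = 0.782). Cx3cl1 stood at 2.20 ± 0.325 against 3.22 ± 1.01 FPKM (-0.38, adjusted p = 0.0921). Ccl2 differed by -0.15 and Tgfb1 by -0.21.

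Markers of other cells moved in the same comparison. Hdc of mast cells (-0.86), Alas2 of red cells (-1.85) and Apoa1 of liver (-1.77) were lower, as 1 of 4, 1 of 8 and 1 of 9 tested genes of their lists. Of 6 tested neutrophil genes 0 were called. The summed level of the 11 genes of that list was 12.9 to 102 FPKM in wild type and 8.92 to 17.0 FPKM in libraries labelled Ret null. Summed liver genes ran from 66.8 to 2980 FPKM and from 48.8 to 175 FPKM. Of 8 endothelial genes 0 were called, and of 7 mesenchyme genes Foxf1 (0.56) and Pdgfra (0.56) were higher. Without the library richest in liver RNA, wild-type female 1, the same 5 genes stayed called, with Lyz2 at -0.98 (adjusted p = 0.0123). When libraries were rescaled by their median ratio, the split over all genes turned from 1504 higher and 671 lower to 537 higher and 1088 lower, and Aif1 joined the 5 (-0.40, adjusted p = 0.0495). The scaling factors ran from 0.9495 to 1.005 in E14.5 wild-type libraries and from 1.021 to 1.038 in those labelled Ret null.

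The genotype difference at E14.5 was set against that at E12.5 in the fit of all groups. For 5 of the 10 genes it was more negative at E14.5 (Lyz2 -1.45, SE 0.380, adjusted p = 0.0141; C1qc -0.94, adjusted p = 0.0162; C1qb -0.87, adjusted p = 0.0189; C1qa -0.86, adjusted p = 0.0244; Cd68 -0.55, adjusted p = 0.0261), where 6.19% of all genes were called lower and 17.4% in either direction. These calls rest on a few libraries. Without the 3 libraries with Alb over 200 FPKM none of the 10 was called, Lyz2 being at -0.73 (adjusted p = 0.170). Without E12.5 wild-type females 1 and 2 Lyz2 alone was, and without all 4 libraries of contradicted sex Cd68 alone. Without E12.5 female 3 labelled Ret null C1qa and Cd68 lost their calls and 3 were left. Cd68 also lost its call, with adjusted p of 0.0527 to 0.0548, without E12.5 male 1 labelled Ret null, E12.5 wild-type female 3 or E14.5 female 1 labelled Ret null. For E12.5 against E10.5 the interaction called 0 of 10 genes, with 0 at an unadjusted p under 0.05, where 1.34% of all genes were called. The genotype differences of males and females could not be told from each other: limma called 0 of 9, 0 of 10 and 0 of 10 genes at the successive stages, and 0% of all genes. At an unadjusted p under 0.05 there were 0, 1 and 1 of these genes and 2459, 304 and 533 of all genes. At E10.5 every female labelled Ret null held Ret RNA and no such male did. There the term cannot separate sex from Ret RNA.

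Relative to Csf1r in the same library, the genes changed unequally. Lyz2 stood at 1.1 ± 0.108 times Csf1r in E12.5 wild type (n = 5) and 2.56 ± 0.424 times at E14.5 (n = 6), against 1.41 ± 0.254 times in E14.5 libraries labelled Ret null (n = 6). Its wild-type ratios at E14.5 ran from 1.94 to 3.04, above all 6 of the others (1.12 to 1.71). C1qa was at 1.49 ± 0.220 against 1.06 ± 0.169 times Csf1r, C1qb at 1.95 ± 0.123 against 1.40 ± 0.282 times and C1qc at 1.88 ± 0.189 against 1.37 ± 0.230 times. Cx3cr1 went the other way, at 0.403 ± 0.0839 times Csf1r in wild type and 0.536 ± 0.0601 times in libraries labelled Ret null, as did Mrc1 (0.583 ± 0.113 and 0.695 ± 0.0664 times). These ratios overlapped between labels for all but Lyz2 and were not tested.

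**Figure D4:**
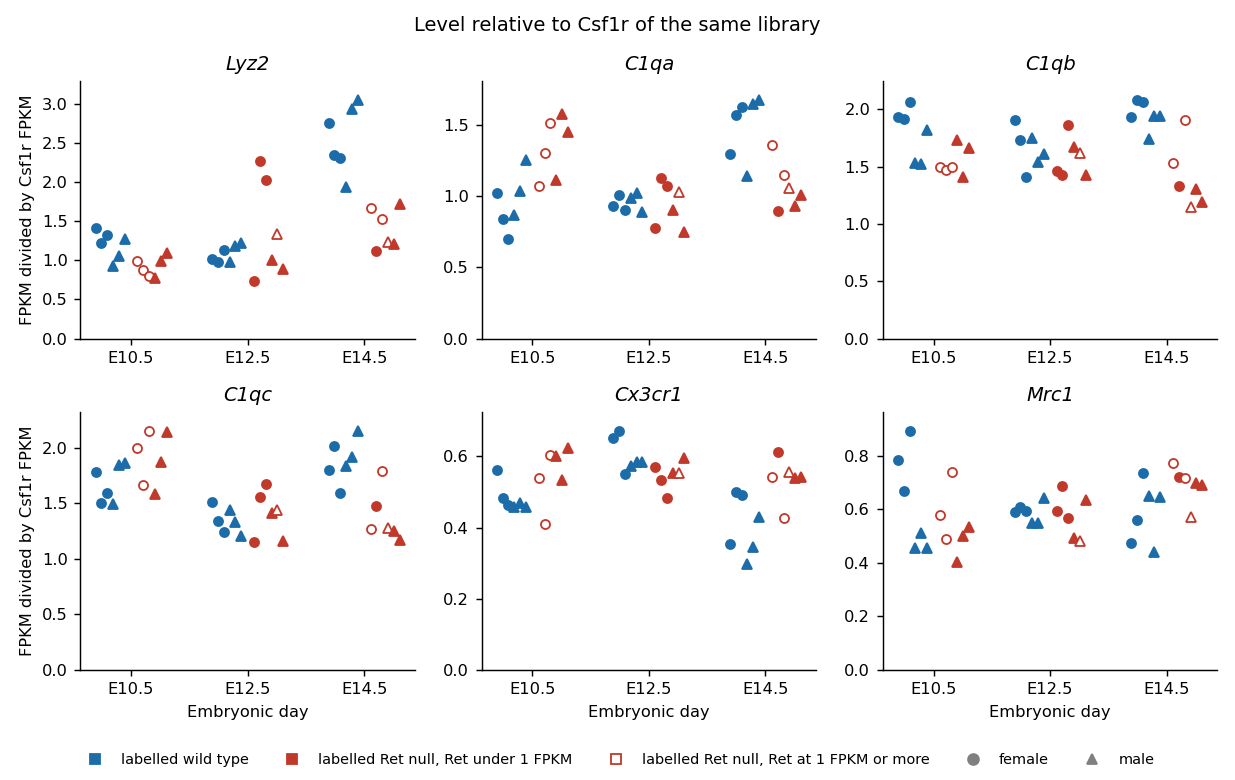
FPKM of 6 genes divided by the Csf1r FPKM of the same library (y axes, from 0) at each embryonic day, with symbols and colours as for the values by library. At E14.5 Lyz2 in wild type (1.94 to 3.04) lies above libraries labelled Ret null (1.12 to 1.71), whereas Cx3cr1 is lower on average in wild type.

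Across the 32 samples each gene was correlated, as a description, with the mean of the other 9 in log2(FPKM + 1). Csf1r followed the others most closely (Pearson r = 0.943, and 0.922 after group means were taken off), and Cd68 least (0.407 and 0.38). Cx3cr1 rose from 0.567 to 0.759 when group means were taken off. The samples share stage, label and, within a library, depth and tissue makeup. The genes outside the set most like its mean were Pld4 (0.944), Lrrn2 (0.934), Unc93b1 (0.926), Ctss (0.918) and Slc11a1 (0.916). With group means taken off the closest were Cyth4 (0.919), Emr1 (0.913), Unc93b1 (0.902) and Pld4 (0.896).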

How the data were processed

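The authors deposited 1 table per library with a gene-level FPKM value and the limits of its interval, per the file headers. Picard, TopHat2, Cufflinks, Cuffdiff and the mm10 genome are named in the submitters' processing notes; the sources used here give no versions or settings, nor any scaling between libraries. FPKM are not counts, so no count model was used. Depth was estimated from interval widths and transcript lengths, and the intervals put the counting error of a value at a median of 5.22% (Mrc1) to 20.4% (Aif1) by gene. They cover counting error only. For the 3 females of the E10.5 null-labelled group FPKM equalled the interval's centre. Elsewhere Lyz2, C1q, Cd68 and Aif1 stood up to 1.16 times above it, and Csf1r, Cx3cr1, Mrc1 and Ptprc at most 1.02 times. The 5 genes called at E14.5 between labels are among the former, so the centre was tried as an alternative. With it these 5 stayed called lower and Aif1 joined them, where 959 of all 13909 genes were lower.

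The model was limma's (3.58.1, R 4.3.3), fitted to log2(FPKM + 1) with a trended empirical Bayes step, two-sided tests and Benjamini-Hochberg adjustment over all genes tested. Differences are on that scale, with its pseudocount of 1, and understate the change of low genes. Genes needed 1 FPKM in at least 3 samples of a fit and an OK status in all its libraries. Each stage was fitted with 4 group means (genotype by sex) and the label contrast averaged over sexes; stage comparisons and interactions came from 1 fit of 12 group means. Replicate pairs were averaged where their spread was at most 1.1 times the sampling noise and at most 1% of genes lay beyond 3 SD. No pairing by replicate number is stated, and none was used in the main fit. In their deviations from group means, same-numbered libraries of a stage correlated at -0.361 to 0.366 and the others at -0.406 to 0.484. At E10.5 the same-numbered ones ran somewhat higher, at -0.0275 to 0.366 (median 0.0392) against -0.303 to 0.203 (median -0.00847). The test was checked on simulated data. All 10 members, Ret, up to 6 called genes per list by smallest p, the ligands and the most like genes were named by rule, while Sfpi1, Tubb3 and Alb were added after values were seen; 18 lists were used. Some genes the rule would name are not reported here. Members and lists were chosen with earlier results of these data known. Alternatives were another pseudocount, no filter, median-ratio scaling, every library counted, no sex term, a replicate block, leaving out libraries against their label or rich in liver RNA, and each sample in turn. Those on interval centres, on Alb and on averaging E14.5 males 2 and 3 labelled Ret null were chosen after seeing the data. Python 3.11.15, pandas 2.3.3, numpy 2.4.6 and matplotlib 3.10.9 were used.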

Additional observations from a re-analysis of the deposited data

Results flagged for a closer look

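In 60 groups of 4 to 6 samples, 4 single values stood far from the rest of their group, and chance alone flags about 1 in 20. C1qb (19.4 FPKM) and C1qc (18.3 FPKM) were highest in E14.5 female 3 labelled Ret null, which holds Ret RNA (5.76 FPKM). Its FPKM summed over all gene entries (497290) was also the highest of the stage. Without this library 7 of the 10 genes were called lower at E14.5. Calls over all genes rose there too, from 671 lower of 13861 to 1236 lower of 13821. Cx3cr1 (1.99 FPKM) was lowest in E10.5 wild-type female 3, and Cd68 (5.05 FPKM) in E14.5 wild-type male 2.

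The difference between labels changed from E12.5 to E14.5, by the interaction term, for Lyz2 (-1.45), C1qa (-0.858), C1qb (-0.868), C1qc (-0.94) and Cd68 (-0.545). None of these calls was kept without the 3 libraries with Alb over 200 FPKM.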

How the results depend on the processing

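No called difference of the 10 genes reversed in any setting. Over 1656 single values under alternatives, 29 calls were lost and 15 gained, and 102 uncalled values changed sign. Counts of genes called at E10.5 between labels went from 0 to 1 when every library was counted and ranged from 0 to 1 with 1 sample left out, as they did for wild type E12.5 against E10.5. For E14.5 between labels the count ranged from 4 to 7 with 1 sample left out, and for wild type E14.5 against E12.5 from 7 to 9. The interaction of E14.5 against E12.5 gave 1 without the 4 libraries of contradicted sex, 0 without libraries with Alb over 200 FPKM and 1 to 6 with 1 sample left out, where 5 was the value reported. Averaging E14.5 males 2 and 3 labelled Ret null, whose spread was 1.05 times the noise, ended the call of Cd68 (-0.43, adjusted p = 0.0657).

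The replicate block, fitted with every library counted, gave 5 of 10 at E14.5 between labels and 8 of 10 for wild type E14.5 against E12.5, where Cd68 lost its call (adjusted p = 0.0558), and in the interaction of E14.5 against E12.5 Ptprc was gained (adjusted p = 0.0395), as it was with every library counted and no block. Replicate numbers are shared without a stated pairing, so this does not speak of a weaker effect.

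Counts over all genes moved more. Between labels at E14.5 they went from 2175 to 1182 without libraries holding Ret, 1122 with the block, 1251 without those rich in Alb, 776 with males 2 and 3 averaged and 669 to 3554 with 1 sample left out. At E10.5 they went from 1091 to 625 without the filter, 3774 with every library, 68 without libraries holding Ret, 184 without those of contradicted sex, 326 without a sex term and 179 to 1268 with 1 sample left out. Without libraries holding Ret, the label contrast at E10.5 and its interaction with stage used males alone, as no such female was left. At E12.5 the counts between labels lay between 0 and 34 in all settings. Wild type E12.5 against E10.5 went from 654 to 1829 with every library, 274 with the block, 264 without libraries of contradicted sex and 298 to 735 with 1 sample left out. The interaction of E12.5 against E10.5 went from 192 to 769 with every library, 1 without libraries holding Ret, 5 without those of contradicted sex, 17 without those rich in Alb and 51 to 417 with 1 sample left out. That of E14.5 against E12.5 went from 2489 to 1473 without libraries of contradicted sex, 297 without those rich in Alb and 1342 to 3563 with 1 sample left out, and median-ratio scaling turned its split from 1602 higher and 887 lower to 852 and 1299. The interactions with sex went from 0 at E10.5 to 1917 with every library, 688 with the block, 50 with interval centres, 9 without libraries of contradicted sex and 0 to 139 with 1 sample left out, and lay between 0 and 3 at the later stages. Aif1 carries the largest counting error of the 10.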
